A study of Mus musculus with 8 samples.

Results

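Regulatory T cells (Treg) of the small intestine, called gut here, were set against the conventional CD4 T cells (Tcon) of the gut of mice with the same genotype. The members are 4 of the 8 Illumina mouse bead arrays of the series, chosen by tissue: 2 of gut Treg and 2 of gut Tcon. They form 2 pairs, 1 of K14 mice and 1 of control mice. The other 4 arrays hold the same cell types from the spleen of mice of the same genotypes. The genes described are those whose signal differed at least 2-fold in 1 direction in both gut pairs and was above background on both arrays of the brighter side. Of 7916 genes tested, 497 (6.28%) met this rule, 269 higher and 228 lower in gut Treg.

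Gut Treg and gut Tcon of K14 mice carried the genotype written K14Aβb, FOXP3GFP, and those of control mice the genotype MHCII+/-, FOXP3GFP. In K14 mice a keratin 14 promoter drives the class II beta chain Aβb, and MHC class II is missing outside the thymus, per the labels and the design text. Control mice kept 1 working MHC class II allele. All arrays share the GFP reporter of Foxp3, the C57B6 background, an age of 7 to 14 weeks and a mix of males and females, and no treatment is named. The sort took live cells positive for TCRb and CD4 and negative for CD8 and B220, GFP+ for Treg and GFP- for Tcon. Each array holds RNA pooled from several mice, so a group of 2 arrays has 1 pool of each genotype, and p-values reflect only how far such pools differ.

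Treg are CD4 T cells that carry the transcription factor Foxp3 and restrain other immune cells. They take up interleukin 2 through a high-affinity receptor, hold back costimulation through CTLA-4 and secrete interleukin 10. In the gut they live beside helper T cells that answer microbes and food with interferon gamma, interleukin 4 and interleukin 17, and some gut Treg are induced there while others arrive from the thymus.

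The 4 gut arrays detected 9201 to 9677 of 25697 probes, with median intensities of 219.4 to 250.2 units. Intensities above 60000 units are near the top of the scale and count as lower bounds here. Across the genes tested, the 2 gut Treg arrays correlated at r = 0.952 and the 2 gut Tcon arrays at r = 0.940, while the Treg and Tcon arrays of a pair correlated at 0.918 for K14 and 0.939 for control mice. Genes, over which these were taken, are no independent replicates. The control gut Tcon array stood apart, since it detected 26 of 30 exocrine pancreas genes, against 5 to 7 on the other gut arrays. T cell markers were present as the sort would have it, with all 7 measured members detected on all 4 gut arrays, among them Cd3e, a chain of the T cell receptor complex, at 28269 and 36053 units in Treg and 33599 and 31270.2 units in Tcon. Cd8a, the alpha chain of CD8, was above background on no gut array, but Cd8b1, the beta chain, read 4256 and 2264 units in Treg and 2800.5 and 1094 units in Tcon.

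The markers of the sort itself were read first. Foxp3, whose reporter defined the gate, had a dim probe that read 321 and 331 units on the K14 and control Treg arrays, against 309.8 and 318 units on the Tcon arrays. All readings lay close together, so this probe does not set the sorted groups apart. A second Foxp3 probe read 427.6 units on the K14 Treg array and was above background on no other gut array. Il2ra, the interleukin 2 receptor alpha chain, read 512 and 486 units in Treg, against 231 and 195 units in Tcon, where it was not above background. The groups did not overlap, and the difference was at least 2.52-fold. This bound compares the Treg mean with the lowest signal above background on each Tcon array, or with the dim probe where that was higher. It and all such bounds hold for background-corrected, normalized values and can exceed the ratio of the deposited intensities, which still contain background. Ikzf2, the Treg factor Helios, and Nrp1, the receptor neuropilin 1, also lay higher on both Treg arrays and are described below. H2-Ab1, the class II beta chain gene, was detected on every gut array and was not lower on the arrays labelled K14 in Tcon, at 2349 and 2482 units in Treg, against 6881 and 5044 units in Tcon, K14 first. It thus gives no check of the genotype labels.

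Treg minus Tcon was computed on the log2 scale for each pair, and the mean of both pairs was tested in 1 fit over all 8 arrays with the 4 pairs as blocks. Values after ± are standard errors (SE) of this fit. Their spread is pooled over the gut and splenic pairs and moderated over all genes, so they do not measure how far the 2 gut pairs differ. Where 2 pairs stands beside an SE, it counts the pairs averaged. By limma's test, adjusted by Benjamini-Hochberg, 0 of 7916 genes (0%) passed at an adjusted p of 0.05, and the smallest adjusted p was 0.104. At an unadjusted p under 0.05 there were 999 genes (12.6%), 541 higher (6.83%) and 458 lower (5.79%) in Treg. The 269 genes 2-fold higher in both pairs make 3.4% of the genes tested and the 228 lower ones 2.88%. Their differences are given as a description, with no test, because these values chose them. Without the replicate block, the same fit called 53 genes (0.67%), 29 higher (0.366%) and 24 lower (0.303%), and all 53 were among the 497. The genes just inside the 2-fold limit were Ncf4 and Zfp597, with 1.0002 for Ncf4 in the K14 pair and -1.0005 for Zfp597 in the control pair, and those just outside it were Gabarapl1 and Cdo1, with 0.9985 and -0.9988 in the control pair. Without background correction 138 and 115 genes met the rule, all of them among the 269 and 228, and log2 differences of dim genes were smaller. Over all genes the median difference was -0.01 on the log2 scale. In sorted pools, fewer cells of a type and less RNA per cell cannot be told apart.

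**Figure D1:**
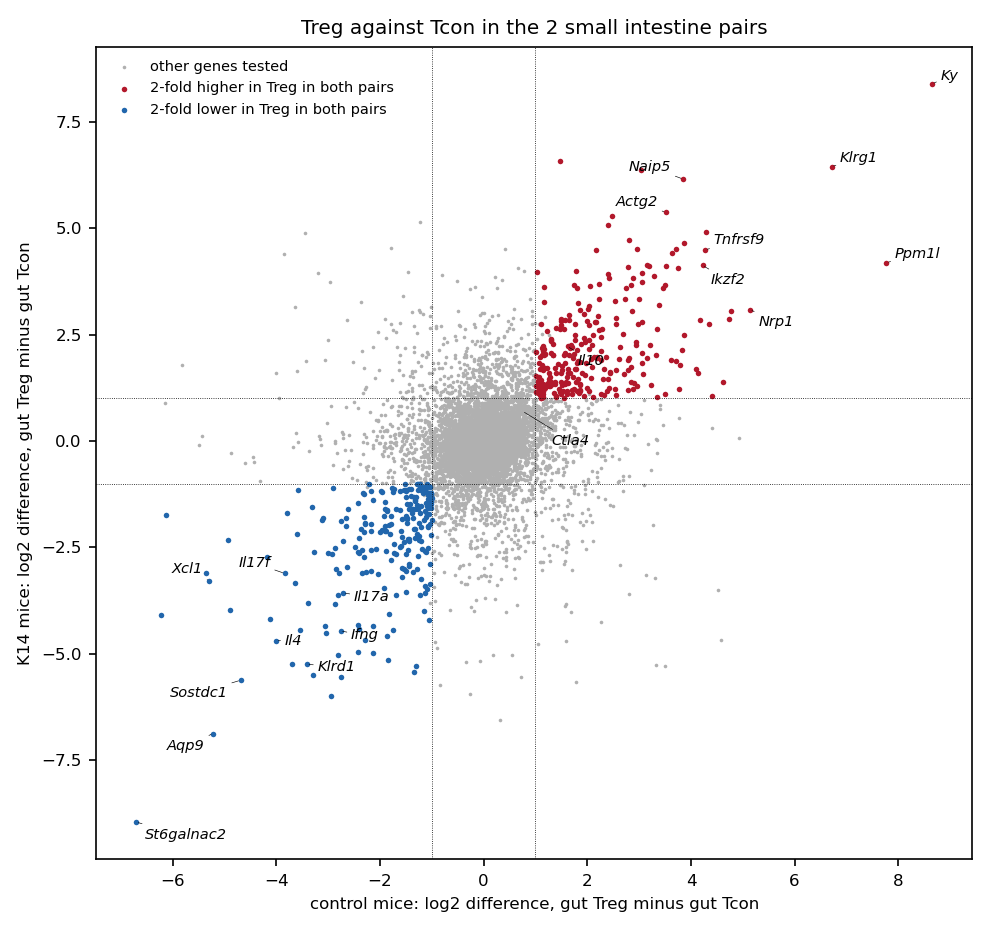
Each point is 1 of 7916 genes, with the log2 difference Treg minus Tcon in the K14 gut pair on the vertical axis and in the control gut pair on the horizontal axis. Red points (269) lie at least 2-fold higher and blue points (228) at least 2-fold lower in Treg in both pairs, dotted lines mark 2-fold, and Ky and St6galnac2 lie farthest out at either end.

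Treg identity genes stood high on the Treg side. Genes are grouped by lists drawn up with earlier results of these data known, and only members that passed the filter on low values are counted, which a gene can pass through its brighter side alone, so the counts describe and support nothing. Of 21 genes of the Treg core list 17 passed the filter, and 10 of these were 2-fold higher in Treg in both gut pairs (58.8%) and 0 were lower, against 3.4% and 2.88% of all genes. The list's median log2 difference was 2.17, with 1.97 in the K14 pair and 2.36 in the control pair. Ikzf2 read 1110.5 and 1046 units in Treg of K14 and control mice, against 182 and 169 units in Tcon, where it was not above background. The 2 Treg readings lay close together and clear of both Tcon readings, at least 7.75-fold higher. Nrp1, common on thymus-derived Treg, read 6615 and 7711 units in Treg, against 818 and 399 units in Tcon, a log2 difference of 3.09 in the K14 pair and 5.14 in the control pair. A second detected probe of Nrp1 gave 3.12 and 5.19 in the same order. Swap70, a regulator of actin and Rac signalling, read 2608 and 4418 units in Treg, against 428 and 337 units in Tcon, with a mean difference of 3.91 ± 0.56 (SE, 2 pairs).

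Further core members were among the brighter genes. Cd83, an activation antigen that steadies MHC class II at the surface, read 40022 and 32826 units in Treg, against 2419 and 6287 units in Tcon. Ebi3, a subunit of interleukin 35, differed by 3.94 in the K14 pair and 3.06 in the control pair, and Capg, an actin-capping protein, by 1.74 in the K14 pair and 2.84 in the control pair. Ctla4, the inhibitory receptor that competes with CD28, was bright on every gut array. It read 61624 and 66353 units in Treg, near the top of the scale, against 33063 and 38057 units in Tcon, and its fitted difference was 0.73 ± 0.23. Other members did not meet the rule, among them Ikzf4 (the factor Eos) at 0.76 in the K14 pair and 3.41 in the control pair and Gpr83, an orphan receptor, at -0.06 in the K14 pair and 2.35 in the control pair. Izumo1r, the folate receptor 4 of Treg, stood at 0.78 in the K14 pair and 0.13 in the control pair, so all 3 fell short of 2-fold in at least 1 pair.

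Costimulatory receptors of the TNF family were higher in 4 of the 9 members measured among 14 listed (44.4%) and lower in 0. Higher genes made 3.4% of all genes, and the list median was 0.89. Tnfrsf9, the receptor 4-1BB, read 4379 and 2855 units in Treg, against 345 and 317 units in Tcon. That made 4.38 ± 0.28 on the log2 scale (SE, 2 pairs, limma adjusted p = 0.104), and a second probe gave 5.37 in the K14 and 3.77 in the control pair. Tnfrsf18, the receptor GITR, read 21466 and 14084 units in Treg, against 3670.5 and 3319 units in Tcon. Tnfrsf4, the receptor OX40, read 35277 and 33066 units in Treg, against 6094 and 9445 units in Tcon. For all 3 receptors both Treg readings lay above both Tcon readings. Of them, Tnfrsf9 and Tnfrsf4 are also counted in the Treg core list, so the 2 lists are not separate results. Cd40, best known on antigen-presenting cells, read 381 and 902 units in Treg, against 232 and 191 units in Tcon by its brightest probe. Another probe detected on 3 gut arrays went the other way, at -1.26 in the K14 and -0.96 in the control pair, so the direction for Cd40 is uncertain. Cd27 stood at 1.07 in the K14 pair and 0.70 in the control pair, just short of the rule.

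Genes of effector and tissue-resident Treg were 2-fold higher in 5 of the 17 members measured among 24 listed (29.4%) and lower in 0. The share of all genes that were higher was 3.4%, and the list's median was 0.97. Klrg1, an inhibitory lectin receptor of differentiated lymphocytes, read 27307 and 10663 units in Treg, against 463 and 281 units in Tcon, of which the control reading was not above background. Its pair differences were close to each other, at 6.45 in the K14 pair and 6.71 in the control pair. Il10, the suppressive cytokine, read 64726 and 71075 units in Treg, close to saturation, against 12358 and 22289 units in Tcon. Its fitted difference was 1.92 ± 0.82, and readings near the top of the scale can understate such a difference. Itgae, the integrin alpha chain CD103 that binds epithelial E-cadherin, read 67219.7 and 53745 units in Treg, against 12833 and 12052 units in Tcon, with the K14 Treg reading near the top. Of its 5 other probes, all had the same direction in both pairs.

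Havcr2 and Prdm1 also met the rule in this group. Havcr2, the inhibitory receptor TIM-3, read 2704 and 1964 units in Treg, against 815 and 674 units in Tcon. Prdm1, the effector regulator Blimp-1, differed by 1.31 in the K14 pair and 1.87 in the control pair. Gata3, which acts in type 2 helper cells and in tissue Treg, read 1466 and 1214 units in Treg, against 782 and 605 units in Tcon, and missed the rule in the K14 pair at 0.76. Icos, Cd44 and Pdcd1, which mark activated T cells of either kind, stood at 0.37, -0.31 and -0.64. Gut Treg and gut Tcon thus read alike for some activation genes and apart for others.

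The largest difference of any gene on the higher side belonged to Ky, known from mice in which its loss causes kyphoscoliosis. It read 18399 and 20422 units in Treg of K14 and control mice, against 199 and 196 units in Tcon, not above background. Both Treg readings were alike and, after background correction, lay at least 181-fold above the Tcon bound, with a log2 difference of 8.52 ± 0.51 (SE, 2 pairs, limma adjusted p = 0.104), against 6.39 without background correction. Ppm1l, a protein phosphatase, read 6662 and 9624 units in Treg, against 489.8 and 169 units in Tcon. Naip5, an inflammasome sensor of bacterial flagellin, read 3948 and 1618 units in Treg, against 192 and 275 units in Tcon, at least 21.1-fold higher in Treg. The Naip genes are near-identical copies, so this signal is uncertain as to the copy. A second Naip5 probe was above background on no array.

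**Figure D2:**
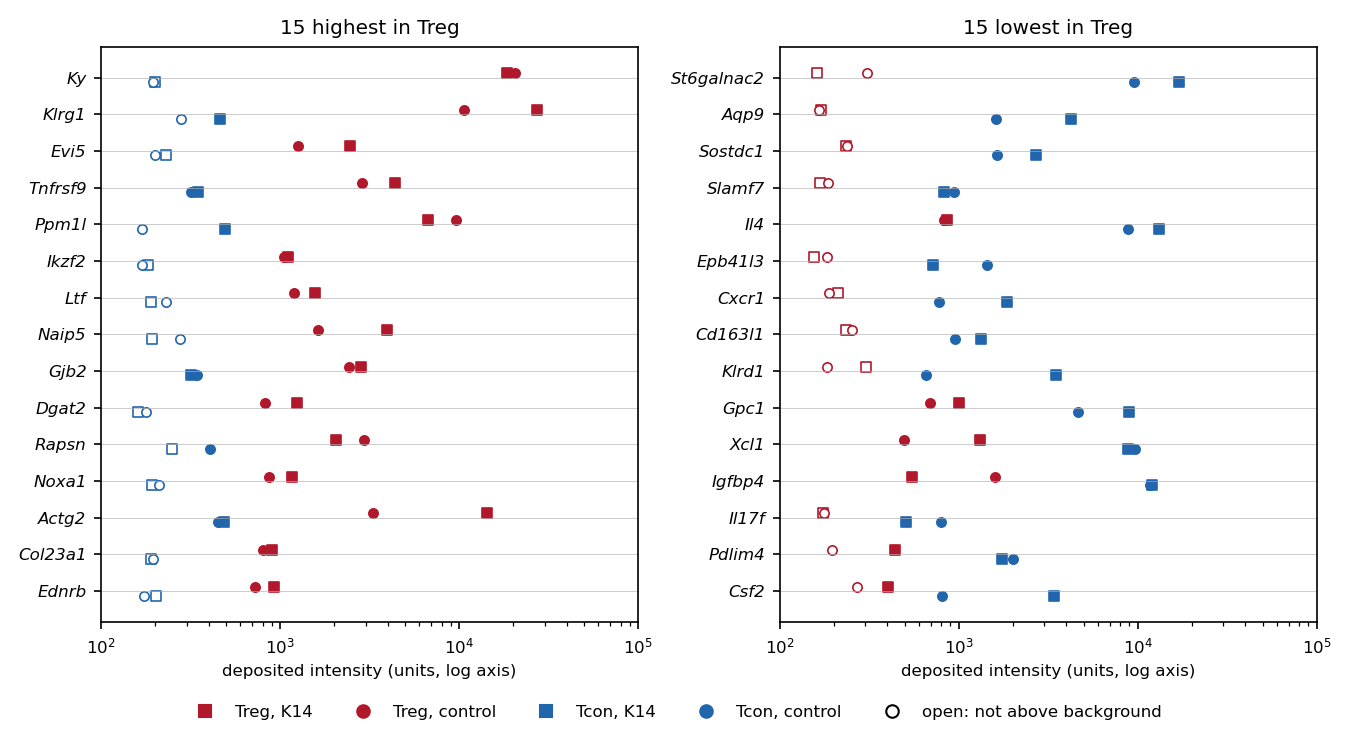
Deposited intensity (units, log axis) of the 15 highest and 15 lowest genes by the smaller of the 2 pair differences, 1 row a gene, with Treg in red above Tcon in blue, squares for K14 and circles for control mice. Open symbols are not above background, and in each row both Treg symbols lie on 1 side of both Tcon symbols.

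Other genes of the top 15 code for membrane, enzyme and matrix proteins. Gjb2, the gap junction protein connexin 26, read 2814 and 2412 units in Treg, against 316 and 344 units in Tcon. Dgat2, which makes the last step of triglyceride synthesis, read 1234 and 821 units in Treg, against 159.8 and 178 units in Tcon, at least 7.1-fold higher. Noxa1, an activator of NADPH oxidase, read 1161 and 871 units in Treg, against 192 and 209.7 units in Tcon, at least 7.07-fold higher. Both genes were above background on no gut Tcon array. Rapsn, a scaffold of the nerve-muscle synapse, read 2043 and 2932 units in Treg, against 247 and 403 units in Tcon. Evi5, a cell cycle and trafficking protein, stood at 2444 and 1259.8 units in Treg, against 231 and 199 units in Tcon.

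Ltf codes for lactoferrin, an iron-binding protein of neutrophil granules and secretions. It read 1561 and 1193 units in gut Treg, against 189.7 and 229 units in gut Tcon, not above background. A second Ltf probe was above background on no array. The neutrophil genes S100a8 and S100a9 were above background on no gut array, and the part of other cells in the Ltf signal was not tested. Col23a1, a membrane collagen, read 901 and 800.5 units in Treg, against 190.4 and 194 units in Tcon. Ednrb, an endothelin receptor, read 925 and 719 units in Treg, against 202 and 174 units in Tcon, while its other probes were above background on no array. Actg2, a smooth muscle actin, was the most variable of these within Treg, at 14370.4 and 3294 units, against 485 and 448 units in Tcon. Of the stromal list, Vwf, the von Willebrand factor of endothelium, also met the rule, at 1245 and 476 units in Treg, against 264 and 205 units in Tcon, not above background. The smooth muscle genes Acta2 and Des did not meet it, at -3.21 in the K14 pair and 0.61 in the control pair for Acta2 and 0.25 in the K14 pair and 2.22 in the control pair for Des. In the spleen the mean differences were 3.45 for Actg2, 0.73 for Col23a1 and 0.94 for Ednrb, and only Actg2 was 2-fold higher in both splenic pairs. The part of stromal cells in Actg2, Col23a1 and Ednrb was not tested.

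Helper cytokines stood on the lower side. Of 18 listed cytokine genes 11 were measured. Among these, 7 were 2-fold lower in Treg in both gut pairs (63.6%, against 2.88% of all genes) and 0 were higher. The list median was -2.22. Ifng, the type 1 cytokine, read 2144 and 4246 units in Treg of K14 and control mice, against 34962 and 24123 units in Tcon. The groups stood far apart, and a second probe had the same direction, at -5.93 in the K14 and -3.44 in the control pair. Il4, the type 2 cytokine, read 864 and 831 units in Treg, against 13193 and 8831 units in Tcon, and was detected on all 4 arrays. Its mean difference was -4.34 ± 0.49 (SE, 2 pairs, limma adjusted p = 0.125).

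The interleukin 17 genes were dimmer. Il17a, which draws neutrophils and acts on epithelium, read 266 and 292 units in Treg, against 964 and 754 units in Tcon. Il17f, its neighbour on chromosome 1, read 174 and 178 units in Treg, against 510.0 and 802 units in Tcon. Neither was above background in gut Treg, and on the background-corrected scale Il17a was at least 6.55-fold and Il17f at least 4.31-fold lower. Sizes were smaller with other settings, with log2 differences of -1.70 and -1.83 without background correction and -1.36 and -1.32 with the authors' log2 values. Csf2, the growth factor GM-CSF, read 403 and 270.3 units in Treg, against 3393 and 807 units in Tcon. Il21, a helper cytokine for B cells, differed by -2.08 in the K14 pair and -2.37 in the control pair, and Fasl, a death ligand, by -1.95 in the K14 pair and -2.29 in the control pair. Members outside the rule were Il13 at -0.66, Tnf at -1.10, Tnfsf11 (the ligand RANKL) at -0.60 and Lta (lymphotoxin alpha) at 0.12. Cytokine genes in activated T cells are known targets of the factors NFAT and AP-1, so the 250 bases before the start of 3 cytokine genes that read lower are shown, each chosen because it holds a match, with Tnfrsf9 as a gene that read higher. The same window of Il4 and Ifng held no match of either motif. Capitals mark the letters TGGAAA (the NFAT core) or TGANTCA (AP-1), searched on both strands, with no match overlapping another in these 4. The sequences are those of RefSeq on GRCm38.p6, 5′ to 3′ on the gene's strand.
Il17a, chr1:20730655-20730904, plus strand, 1 AP-1 match: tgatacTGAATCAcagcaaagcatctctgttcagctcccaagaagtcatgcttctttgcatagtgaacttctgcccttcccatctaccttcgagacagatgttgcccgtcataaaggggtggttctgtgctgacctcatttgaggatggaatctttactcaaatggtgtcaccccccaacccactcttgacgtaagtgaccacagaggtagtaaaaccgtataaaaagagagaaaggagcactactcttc
Il17f, chr1:20784271-20784520, minus strand, 1 NFAT match: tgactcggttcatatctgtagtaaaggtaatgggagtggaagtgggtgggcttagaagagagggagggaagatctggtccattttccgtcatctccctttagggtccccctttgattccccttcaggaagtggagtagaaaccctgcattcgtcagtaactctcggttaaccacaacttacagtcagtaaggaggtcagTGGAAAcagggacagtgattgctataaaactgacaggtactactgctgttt
Csf2, chr11:54249900-54250149, minus strand, 1 NFAT match: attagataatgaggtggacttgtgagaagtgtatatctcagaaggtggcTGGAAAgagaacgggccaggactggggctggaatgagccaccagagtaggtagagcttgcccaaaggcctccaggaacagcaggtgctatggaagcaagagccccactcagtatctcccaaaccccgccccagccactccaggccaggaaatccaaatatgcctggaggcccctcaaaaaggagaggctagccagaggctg
Tnfrsf9, chr4:150919905-150920154, plus strand, 1 NFAT match: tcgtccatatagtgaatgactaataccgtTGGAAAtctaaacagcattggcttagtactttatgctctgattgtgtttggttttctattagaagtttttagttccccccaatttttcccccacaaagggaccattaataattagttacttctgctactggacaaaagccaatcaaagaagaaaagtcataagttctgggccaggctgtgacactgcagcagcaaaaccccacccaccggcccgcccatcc

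The match of the NFAT letters began 51 bases before the start in Il17f, 201 in Csf2 and 221 in Tnfrsf9, and that of the AP-1 letters 244 bases before the start in Il17a. Promoters were on hand for 196 of the 269 higher and 187 of the 228 lower genes. The letters TGGAAA stood in 13.3% of the higher and 26.2% of the lower promoters, against 15.5% of 6503 promoters of all genes tested and 18.7% of the 27025 in the table. The median GC content was 59.8% for the higher, 59.6% for the lower and 59.2% for all genes tested. TGANTCA stood in 7.14% of the higher and 5.35% of the lower promoters, against 4.67% of those of all genes tested. The forkhead letters TGTTTAC stood in 2.04% of the higher and 1.6% of the lower promoters, against 2.18% of all tested. For TTCNNNGAA, of STAT factors, the shares were 6.63% and 3.74%, against 6.03%. The T-box letters AGGTGTGA stood in 3.06% and 1.07%, against 0.83%, and a 10-base NF-kB motif in 3.06% and 2.14%, against 1.58%. Those for TNGGTCA, the RORE motif, were 9.18% of the higher and 5.35% of the lower promoters, against 8.55% of all tested. These matches are a description and were not tested.

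Of 16 listed transcription factors that set helper lineages, 9 were measured. Of these, 1 was 2-fold lower in both pairs (11.1%, against 2.88% of all genes) and 0 were higher, with a median of -0.05. That gene was Tbx21, the type 1 regulator T-bet, which read 878 and 1448 units in Treg, against 2418 and 4222 units in Tcon. The follicular regulator Bcl6 stood at -0.62 and Stat4, a transducer of interleukin 12, at 0.19.

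Of 8 T cell chemokines listed 6 were measured. Among them 2 were lower in both pairs (33.3%, against 2.88% of all genes) and 0 were higher, with a median of -1.03. Xcl1, a chemokine for cross-presenting dendritic cells, read 1313 and 498 units in Treg, against 8823 and 9673 units in Tcon. Ccl5, an attractant of effector T cells, read 3149 and 4554 units in Treg, against 5524 and 17084 units in Tcon, where the K14 Tcon and control Treg readings lay close. Ccl3 had opposite signs in the pairs, at 0.83 in the K14 pair and -1.77 in the control pair.

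NK and cytotoxic cell genes were lower in 6 of the 10 members measured among 16 listed (60%) and higher in 0. Lower genes made 2.88% of all genes. The list's median was -1.45. All 10 members had a negative difference in both pairs, as did 2310 of all 7916 genes. Klrd1, the lectin receptor CD94, read 305 and 184 units in Treg, not above background, against 3496 and 655 units in Tcon, at least 12.3-fold lower. Nkg7, a protein of cytotoxic granules, read 5961 and 6930.1 units in Treg, against 26857 and 19471 units in Tcon. Klrb1c, the receptor NK1.1, read 387 and 567 units in Treg, against 939 and 1105 units in Tcon. Gzmk, a granule protease, read 262 and 288 units in Treg, not above background, against 504 and 637 units in Tcon. Klrk1, the receptor NKG2D, missed the rule in the control pair, at -2.67 in the K14 pair and -0.08 in the control pair. The 2 members shared with the myeloid list were Fcer1g at -1.94 in the K14 pair and -1.04 in the control pair and Tyrobp at -1.87 in the K14 pair and -0.56 in the control pair.

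Genes of resting and central T cells were lower in 4 of the 10 members measured among 15 listed (40%) and higher in 0. By the same rule 2.88% of all genes were lower, and the list's median was -0.93. Igfbp4, which binds insulin-like growth factors, read 551 and 1597 units in Treg, against 12044 and 11789 units in Tcon. Bcl2, the survival gene, read 1134 and 1561 units in Treg, against 5909.8 and 3742 units in Tcon, and its 4 other detected probes had the same direction in both pairs. Foxp1 and Klf3, which help keep T cells quiescent, stood at -1.33 ± 0.25 and -1.12 ± 0.21 (SE, 2 pairs). Readings of Foxp1 overlapped between the groups, at 449.8 and 998 units in Treg, against 760.1 and 1673 units in Tcon. Lef1, Ccr7, Klf2 and Il7r, other genes of this state, did not meet the rule, with means of -0.02, -0.50, -0.20 and -0.49.

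**Figure D3:**
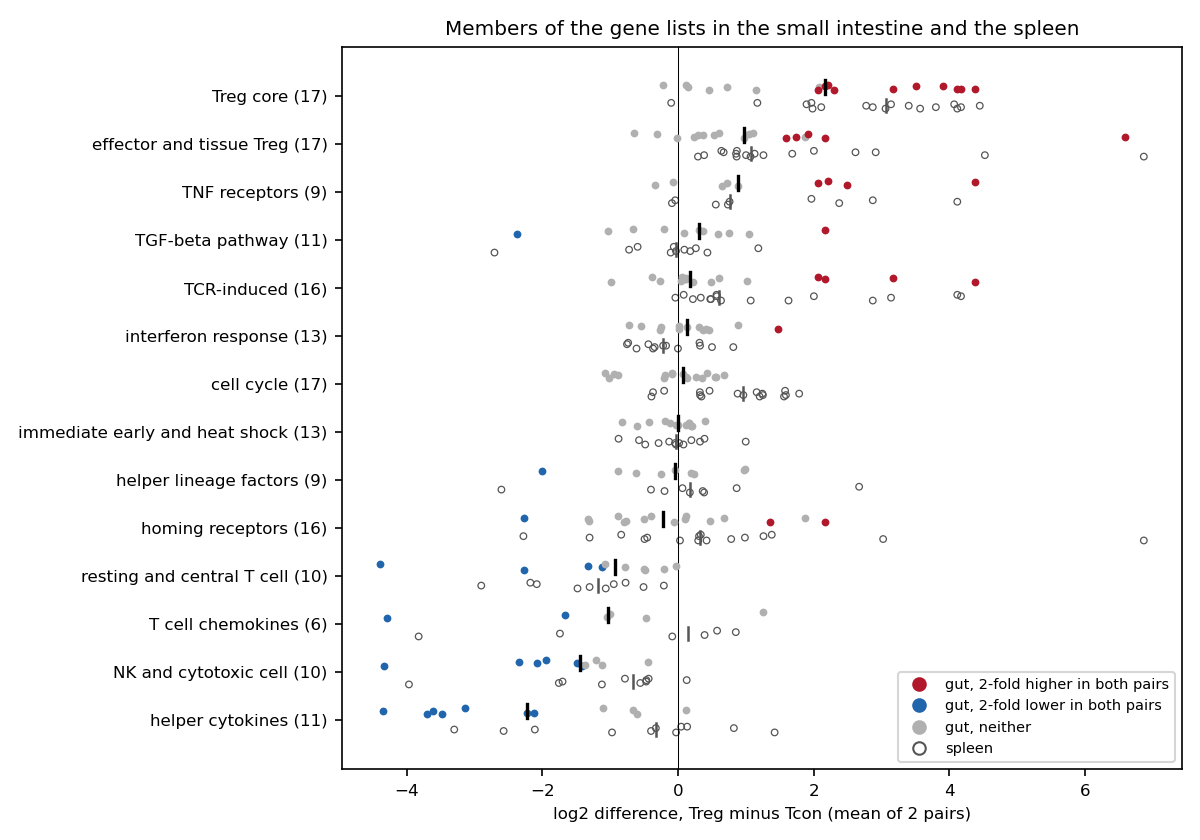
Log2 difference Treg minus Tcon (mean of 2 pairs) of each measured member of 14 gene lists, with the number measured in brackets, gut points above spleen points in each row and bars at the medians. Red points are 2-fold higher and blue points 2-fold lower in both gut pairs; the Treg core list has 10 red points and the helper cytokine list 7 blue ones.

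The gene with the lowest difference of all was St6galnac2, a sialyltransferase of mucin-type sugars. It read 162 and 309 units in Treg of K14 and control mice, not above background, against 17005 and 9575 units in Tcon. The groups stood at least 130-fold apart. Aqp9, a channel for glycerol and water, read 169 and 166 units in Treg, not above background, against 4216 and 1624 units in Tcon, at least 24.7-fold lower. Sostdc1, a secreted antagonist of BMP and Wnt signals known from follicular T cells, read 234 and 236 units in Treg, against 2721 and 1644 units in Tcon, at least 19.4-fold lower. Slamf7, a receptor of cytotoxic and activated lymphocytes, read 168 and 186 units in Treg, against 828 and 943 units in Tcon. Cd163l1, a scavenger receptor known from interleukin 17-producing gamma delta T cells, read 234 and 255 units in Treg, against 1326 and 954 units in Tcon. None of these 3 was above background in gut Treg.

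Gpc1, a heparan sulfate proteoglycan, was measured on both sides, at 998 and 695 units in Treg, against 8936 and 4658 units in Tcon. Its mean difference was -3.60 ± 0.26 (SE, 2 pairs, limma adjusted p = 0.104). Cxcr1, a chemokine receptor best known on neutrophils, read 211 and 189 units in Treg, against 1862 and 775 units in Tcon. Pdlim4, an actin-associated adaptor, read 439 and 197 units in Treg, against 1738 and 2019.8 units in Tcon. Both Tcon readings of each gene lay above both Treg readings. Epb41l3, a membrane skeleton protein, read 156 and 183 units in Treg, against 715 and 1431 units in Tcon, but a second probe, detected on 2 gut arrays, stood at 0.55 in the K14 and -0.19 in the control pair, so its direction is uncertain.

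Myeloid, class II, epithelial and pancreas marker lists held lower genes only, with 5 of 14, 3 of 9, 3 of 11 and 3 of 10 measured members 2-fold lower in both pairs. So did the innate lymphoid list, with 1 of 4. The B cell list (1 of 5) and the stromal list (1 of 5) held a higher one. Of all genes, 2.88% were lower and 3.4% higher. The lower innate lymphoid gene was Lmo4, at 1657 and 3655 units in Treg, against 29653 and 15254 units in Tcon, while the other 3 measured members were positive in both pairs. Of 18 myeloid and dendritic cell genes on the array, 7 and 5 were detected in gut Treg of K14 and control mice, against 12 and 9 in gut Tcon. Their summed background-corrected intensity was 13008 to 18521 units in Treg, against 20963 to 29412 units in Tcon. Lyz1 and C1qb, of macrophages, were 2-fold lower in both pairs, C1qb at 535 and 461 units in Treg, against 2954 and 1024 units in Tcon. At any size, 11 of the 14 measured members were negative and 2 positive in both pairs. Cst3 read higher in Treg, at 12239 and 8094 units, against 6779 and 7174 units in Tcon. Ctss did so too, at 434 and 424 units in Treg, against 332 and 362 units in Tcon. Itgam, Itgax, Spi1, Cybb, S100a8 and S100a9 were above background on no gut array. The macrophage and monocyte genes Adgre1, Cd14 and Fcgr3 were above background on the K14 Tcon array alone among the gut arrays, at 481, 434 and 436 units, and C1qc on both Tcon arrays and no Treg array. Among class II presentation genes, 3 of 9 measured were lower in both pairs, H2-Ab1 at -1.93 in the K14 pair and -1.25 in the control pair. Myeloid genes had a median of -1.96 in the K14 pair and -0.46 in the control pair. The part of myeloid or innate lymphoid cells in the lower NK, cytokine and chemokine lists was not tested.

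**Figure D4:**
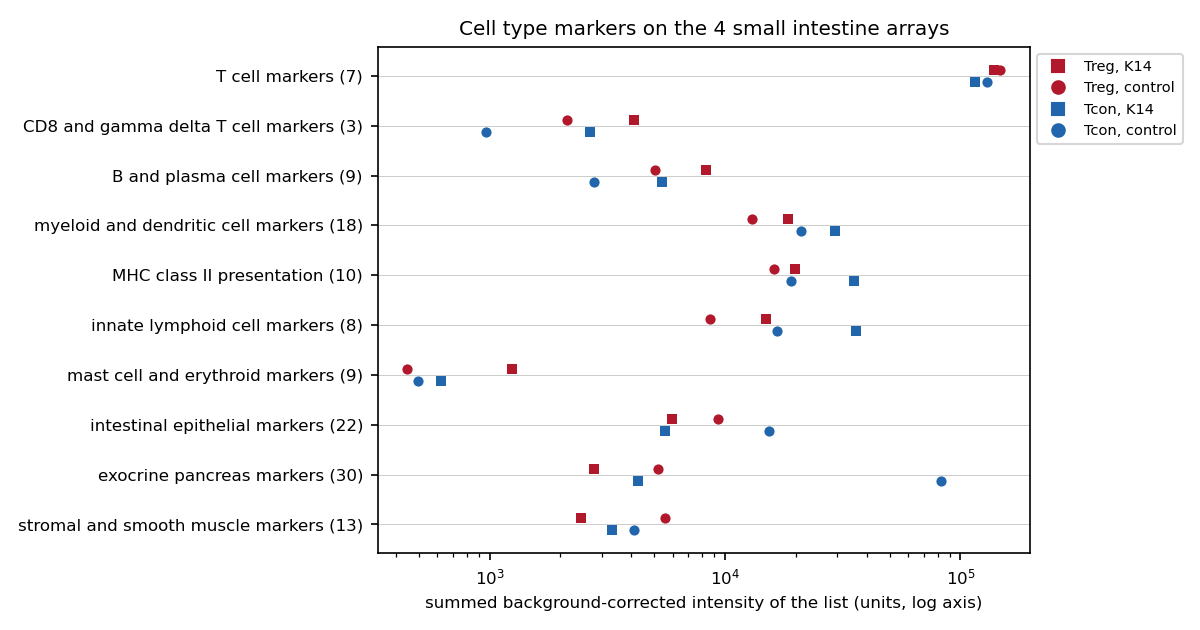
Summed background-corrected intensity (units, log axis) of 10 cell type marker lists, with the number of genes on the array in brackets, for Treg (red, above) and Tcon (blue, below) of K14 (squares) and control mice (circles). Exocrine pancreas markers reach 82772 units in control Tcon, against 2765 to 5209 units on the other arrays.

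Exocrine pancreas genes summed to 2765 and 5209 units in gut Treg of K14 and control mice, against 4254 and 82772 units in gut Tcon. Their median log2 difference was -0.51 in the K14 pair and -4.90 in the control pair. Cela2a, an elastase, read 249.6 and 1178 units in Treg, against 232 and 36331 units in Tcon. Leaving out the pancreas genes and the genes near the top of the scale took only those genes off the lists. That left 267 of the 269 higher and 225 of the 228 lower genes. The rule reads each gene by itself after normalization, so these counts cannot show whether pancreas RNA affected other genes. Epithelial markers were detected for 7 and 7 of 22 genes in Treg, against 7 and 15 in Tcon. Of 11 measured, 3 were 2-fold lower in both pairs: Cdx2, an intestinal transcription factor, at -3.12 in the K14 pair and -2.04 in the control pair, Tff3, a goblet cell peptide, at -1.78 in the K14 pair and -2.30 in the control pair, and Cdh1 (E-cadherin) at -1.71 in the K14 pair and -1.06 in the control pair. B cell markers were detected for 4 of 9 genes on every gut array. Cd79b of that list was higher in Treg, at 7249.6 and 4190.0 units, against 1547 and 959 units in Tcon, while Ms4a1 and Pax5 were above background on no gut array. Blk went the other way, at 360 and 436 units in Treg, against 3519 and 585.5 units in Tcon. Mzb1 did so too, at 468 and 476 units in Treg, against 510 and 1305 units in Tcon. Of the 5 measured members, 1 was positive and 2 were negative in both pairs at any size, with a list median of -0.21.

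Signals of recent T cell receptor contact were mixed. Of 20 TCR-induced genes 16 were measured, with a median of 0.17. In both pairs 4 were higher (25%, against 3.4% of all genes) and 0 were lower. All 4 (Tnfrsf9, Il2ra, Cd83 and Tnfrsf4) also stand in the Treg core list. The factors Egr1, Egr2 and Egr3 stood at -0.38, -0.99 and -0.27, Cd5, a brake on receptor signals, at 0.22 and Cd69, a retention marker, at 0.12. Nr4a3 had opposite signs in the pairs, at 2.83 in the K14 pair and -2.63 in the control pair. Immediate early and heat shock genes had 0 of 13 measured members in either direction and a median of 0.00, and cell cycle genes 0 of 17 measured and a median of 0.08. Both shares are near those of all genes.

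The TGF-beta pathway, which induces Foxp3 and CD103 in the gut, had 1 member higher and 1 lower of 11 measured among 16 listed. Each makes 9.09% of the measured members, against 3.4% of all genes higher and 2.88% lower. Tgfbr1, the type 1 receptor, read 11624 and 8642 units in Treg, against 1572 and 2903 units in Tcon. Tgfbr3, the coreceptor betaglycan, read 273 and 333 units in Treg, against 597 and 716 units in Tcon. The receptors thus went in opposite directions, and Tgfbr2, the type 2 receptor, stood at -0.62 in the K14 pair and -0.72 in the control pair, with Tgfb1, the ligand, at 0.65 in the K14 pair and 0.53 in the control pair. Of 13 interferon response genes measured among 17 listed, 1 was higher (7.69%, against 3.4% of all genes). It was Stat2, a transducer of type I interferon signals, at 3278 and 3407 units in Treg, against 1367 and 1011 units in Tcon.

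Homing receptors held 2 higher and 1 lower of 16 members measured among 26 listed, with a median of -0.22. That is 12.5% higher and 6.25% lower, against 3.4% and 2.88% of all genes. Beside Itgae, Ccr4, a receptor for skin and lung chemokines, read 509 and 426 units in Treg, against 278 and 252 units in Tcon, all dim. Cxcr6, a receptor of tissue-resident T cells, read 281 and 398 units in Treg, against 956 and 568 units in Tcon. Itgb7, the beta chain that pairs with CD103, stood at 0.67, and Ccr6 had opposite signs, at -1.94 in the K14 pair and 0.39 in the control pair. Ccr9, the small intestine homing receptor, was not analysed here.

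The same genes were read in splenic Treg and Tcon, 2 pairs on the other 4 arrays. In the spleen 494 genes (6.24%) differed 2-fold in both pairs by the same rule, of which 323 were 2-fold higher (4.08%) and 171 lower (2.16%) in both pairs. Of the 269 genes higher in gut Treg, 93 were in the splenic higher list, which is 34.6% of the gut list and 28.8% of the splenic one, and 2 were in the splenic lower list. Of the 228 genes lower in gut Treg, 42 were in the splenic lower list (18.4% of the gut and 24.6% of the splenic list), and 1 was in the splenic higher list. With any size of difference, 181 of the 269 (67.3%) were higher in both splenic pairs, where 27% of all genes were, and 126 of the 228 (55.3%) were lower in both, where 32.8% of all genes were. The median difference of the higher genes was 1.97 in the gut and 0.90 in the spleen, and that of the lower genes was -1.95 in the gut and -0.48 in the spleen. The gut values chose these genes, so a smaller median in the spleen is no finding.

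**Figure D5:**
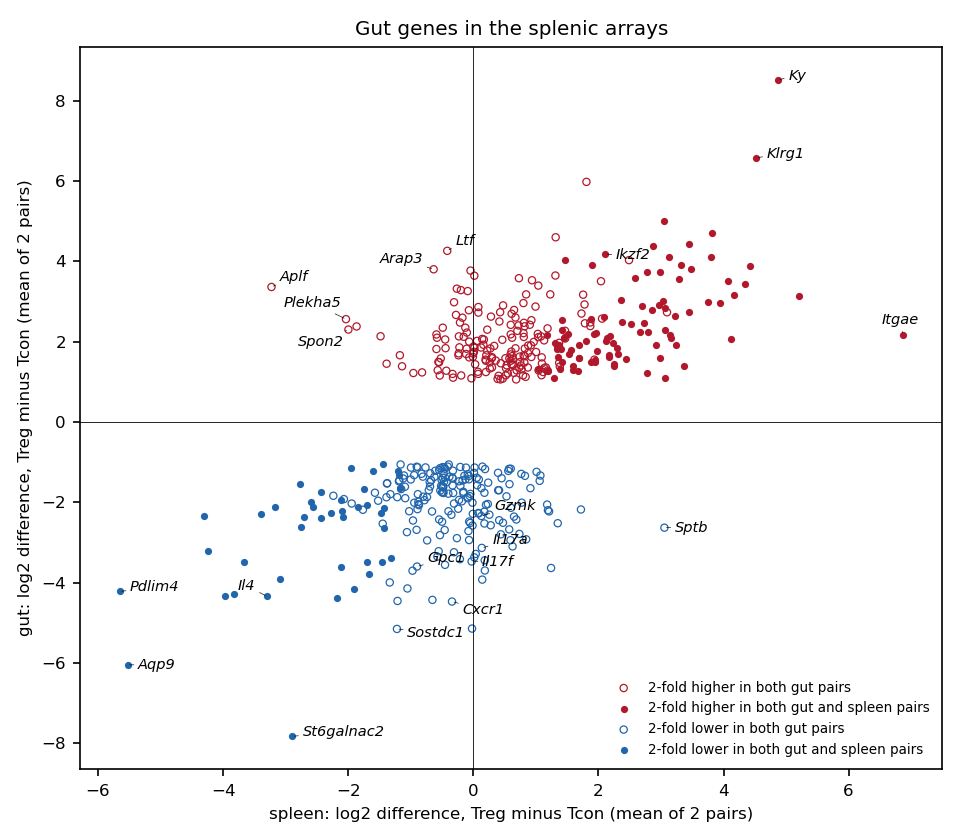
Log2 difference Treg minus Tcon (mean of 2 pairs) of the 497 genes in the gut (vertical axis) and the spleen (horizontal axis), red for those higher and blue for those lower in both gut pairs. Filled points (93 red, 42 blue) are also 2-fold in the same direction in both splenic pairs, and Il17a and Il17f lie near 0 on the splenic axis.

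Whether a difference was larger in the gut than in the spleen was tested by limma on the difference of the 2 differences, and 0 of 7916 genes (0%) passed, with a smallest adjusted p of 0.418. At an unadjusted p under 0.05 there were 577 genes (7.29%). The values that follow are therefore descriptions. Il17a and Il17f were above background on no splenic array, Il17f at 162 and 165 units in splenic Treg, against 156 and 168 units in splenic Tcon. Their gut minus spleen differences were -3.27 ± 0.52 and -3.45 ± 0.39 (SE, 2 pairs against 2), with adjusted p = 0.418 for both. Gzmk was likewise above background on no splenic array. The helper cytokine list had a median of -2.22 in the gut, against -0.33 in the spleen, and the cell cycle list one of 0.08 in the gut, against 0.96 in the spleen.

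For Ctla4, Itgae and Tnfrsf4 the difference read smaller in the gut than in the spleen. The difference of Ctla4 was 0.73 ± 0.23 in the gut, against 4.45 ± 0.23 in the spleen, where it read 14033 and 21461 units in Treg, against 708 and 1286 units in Tcon. Gut minus spleen was -3.72 ± 0.33 (limma adjusted p = 0.418), and its gut Treg readings are near the top of the scale. Itgae read 25564 and 13575 units in splenic Treg, against 286 and 399 units in splenic Tcon, so gut Tcon, at 12833 and 12052 units, lay far above splenic Tcon. Tnfrsf4 stood at 2.06 in the gut, against 4.12 in the spleen. Ikzf2 stood at 4.18 in the gut, against 2.11 in the spleen, and Ky at 8.52 in the gut, against 4.87 in the spleen.

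The 5 genes with the highest gut minus spleen difference, among those of 1 sign over all pairings and detected on both brighter gut arrays, were Aplf, Ltf, Plekha5, Arap3 and Spon2. Aplf, a DNA repair factor, read 1016 and 696 units in gut Treg, against 194 and 226 units in gut Tcon, while splenic Treg read 221 and 218 units, against 407 and 1393 units in splenic Tcon. Plekha5, a phosphoinositide-binding protein, also stood higher in gut Treg (2.56) and lower in splenic Treg (-2.04). Ltf read 5822 and 1368 units in splenic Treg, against 9983 and 1429 units in splenic Tcon, so it was above background in all groups but gut Tcon. The neutrophil gene S100a9, not above background on the gut arrays, read 3769 and 869 units in splenic Treg, against 5984 and 1191 units in splenic Tcon, and the part of neutrophils in splenic Ltf was not tested. Arap3 stood at 3.80 in the gut and -0.63 in the spleen, and Spon2, an extracellular matrix protein, at 2.30 in the gut, while its spleen pairs gave -3.96 for K14 and -0.03 for control mice.

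At the other end were Tbc1d2, Sptb, Fam20a, Scin and St6galnac2. Tbc1d2, a regulator of endosomal trafficking, read 2426 and 4152 units in gut Treg, against 2405 and 7518 units in gut Tcon, and 3394 and 1786 units in splenic Treg, against 226 and 224 units in splenic Tcon. It was thus present in 3 of the 4 groups and not above background in splenic Tcon. Sptb, a spectrin of the membrane skeleton, read 209 and 1166 units in gut Treg, against 998 and 1941 units in gut Tcon, with the K14 Treg reading not above background. Fam20a and Scin depended on 1 pair. Fam20a, a secretory pathway pseudokinase, stood at -6.55 in the K14 pair and 0.32 in the control pair, and Scin, an actin-severing protein, at 0.08 in the K14 pair and -2.71 in the control pair.

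The 2 gut pairs were far from alike. Across the 7916 genes their differences correlated at r = 0.326, a description across genes, and 57.9% of genes had 1 direction in both pairs. In 170 genes (2.15%) the pairs differed at least 2-fold in opposite directions. K14 and control mice are 1 pair each, so genotype, pool and array cannot be told apart. Between the genes named above, Ppm1l, Nrp1, Xcl1 and Pdlim4 had the larger size in the control pair, and Naip5, Actg2, Csf2 and Igfbp4 in the K14 pair. For Ppm1l this order depends on the probe. Another Ppm1l probe, detected on 2 gut arrays, was higher in Treg in both pairs but more so in the K14 pair. Of the 15 highest and 15 lowest genes, the pairs were closest for Slamf7 and Ikzf2. Slamf7 stood at -4.18 in the K14 pair and -4.11 in the control pair, and Ikzf2 at 4.13 and 4.22 in the same order. The dimmer side of each was not above background, so these values depend on the background level. Across alternatives with both pairs, Slamf7 ran from -4.20 to -1.73 and Ikzf2 from 1.77 to 4.23.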

How the data were processed

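Per the file headers, the authors deposited a non-normalized table with an intensity and a detection p-value for each of 25697 probes on each of 8 Illumina mouse arrays, and a table of log2 values whose scale and centring are not stated, used here as an alternative. The scanner software and its version are not given in the sources used here. In R 4.3.3, limma 3.58.1 corrected the intensities for background from the detection p-values (nec, offset 16), normalized them by quantiles and took log2. Platform annotation named 23978 probes with 1 gene and left 1719 unnamed. A probe was kept where its detection p was under 0.05 on at least 2 of the 8 arrays, and each gene was represented by its brightest kept probe, which gave 7916 genes from 10021 probes. An intensity with a detection p of 0.05 or more is called not above background.

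Treg minus Tcon was fitted on all 8 arrays with 4 pair blocks, a Treg term for each tissue and 2 residual degrees of freedom, and p-values were adjusted over all genes by Benjamini-Hochberg. The replicate number of the titles stands for the genotype, so pairs were formed from the genotype labels. As a check of the pairing, K14 minus control correlated between Treg and Tcon arrays at 0.1 in the gut and 0.167 in the spleen, across genes. The number of arrays limits the precision, and no counting error applies. The fit was also run on simulated data with normal noise and no background floor, so that run is no check of values near background. No chip or scan date was on hand, so array batches were not analysed here.

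Named were the 15 highest and 15 lowest genes by the smaller pair difference, up to 4 of the largest members of each list, the 5 highest and 5 lowest for gut minus spleen, and a fixed set of T cell genes. Other list members were named after their values were seen. The members and lists were chosen with earlier results of these data known. Promoters are the 250 bases before the first RefSeq start on GRCm38.p6. Alternatives changed the background correction, normalization, offset, filter, probe choice, floor, block, fold limit and pairs used.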

Additional observations from a re-analysis of the deposited data

How the results depend on the processing

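Without the replicate block, limma called 53 genes in the gut and 49 in the spleen, against 0 in each with the block, and 0 for the difference between tissues. Of the 67 named genes, 23 passed without the block. In the gut, every other alternative gave 0 calls, with a smallest adjusted p between 0.0844 (the authors' log2 values) and 0.371 (without replicate 2, the K14 pair). With a pair left out, the lone gut pair is assumed to vary like the splenic pairs, which alone supply the spread, so those 0 calls say nothing of stability. In the spleen, 2 genes passed without background correction and 2 with the authors' log2 values. The number of genes 2-fold higher in both pairs was 138 without background correction, 113 with the authors' log2 values, 73 at 4-fold and 555 at 1.5-fold. The number lower was 115, 90, 58 and 459 in the same order, and a single pair alone gave 673 to 836 higher and 619 to 793 lower. Of the 269 and 228 genes, 111 and 90 met the rule with the authors' values, 224 and 183 with a floor at the lowest signal above background, and 250 and 213 with median centring. Genes 2-fold apart in opposite directions numbered 39 without background correction and 25 with the authors' values, against 170. The cause was not tested. Among the named genes, Fam20a ran from -6.55 without replicate 1 (the control pair) to 0.32 without replicate 2, and Scin from -2.71 without replicate 2 to 0.0784 without replicate 1, so each turned in 1 pair, while the direction of the other named genes was kept in every alternative run. The helper cytokine median was -1.70 without background correction, -1.32 with the authors' values and -0.66 without the detection filter, which adds genes not above background. Depth of signal limits genes near background: across alternatives Ikzf2 ran from 1.77 to 4.23 and Il17f from -3.57 to -1.32, so sizes of such genes are uncertain.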

Other observations

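Further gene groups among the 497 were picked after their values were seen and are given as values alone. Beside St6galnac2, other glycosyltransferases among the lower genes were picked by hand. How many glycosyltransferases were measured or read higher was not counted. They thus give no share to set against the 2.88% of all genes that were lower. Others, such as B3galt6 at -1.72 in the K14 pair and 1.63 in the control pair, were not lower in both pairs. Gcnt2, which branches poly-lactosamine chains, read 373 and 1338 units in gut Treg of K14 and control mice, against 8849 and 7707 units in gut Tcon. St3gal6, a sialyltransferase that helps make selectin ligands, read 748 and 1193 units in Treg, against 5213 and 6202 units in Tcon. Both groups were above background for each of the 2 genes, and their Tcon readings lay above both Treg readings. Chsy1 and Xylt2, which build the chondroitin and linker chains of proteoglycans, stood at -2.10 in the K14 pair and -1.96 in the control pair and at -1.96 in the K14 pair and -1.79 in the control pair, and B4galnt2, a blood group glycosyltransferase of the gut, at -2.56 in the K14 pair and -2.34 in the control pair. In the spleen, means of these 5 genes ran from -4.25 for St3gal6 and -1.22 for Xylt2 to 0.41 for B4galnt2.

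Some receptors and ligands read lower as well. P2ry6, a receptor for UDP, read 436 and 280.4 units in Treg, against 1331 and 792 units in Tcon, P2ry13, a receptor for ADP, stood at -2.62 in the K14 pair and -2.41 in the control pair, and P2ry1 at -2.26 in the K14 pair and -1.58 in the control pair. Tnfsf14, the ligand LIGHT, read 2135 and 1295 units in Treg, against 8359.6 and 6481 units in Tcon, and Vdr, the vitamin D receptor, 304 and 468 units in Treg, against 4154 and 1685 units in Tcon. P2ry6 and P2ry13 are also expressed in myeloid cells, whose markers were lower in gut Treg too, and their part here was not tested. On the higher side, 3 dim matrix genes read much alike in both pairs: Col15a1, a basement membrane collagen, at 2.17 in the K14 pair and 2.02 in the control pair, Lamc1, a laminin chain, at 2.62 in the K14 pair and 2.22 in the control pair, and Nid2 (nidogen 2) at 1.84 in the K14 pair and 1.81 in the control pair. None of these 3 was above background in gut Tcon. Other matrix genes had opposite signs, such as Bgn (biglycan) at 1.99 in the K14 pair and -1.11 in the control pair, and Vwf, an endothelial marker, was higher in both, at 3.34 in the K14 pair and 2.22 in the control pair. The part of stromal or endothelial cells was not tested. Some genes went opposite ways in the pairs: Msc, the repressor musculin, read 170.3 and 1273 units in Treg, against 1096 and 167 units in Tcon, and Mybl2, a cell cycle factor, 2196 and 235 units in Treg, against 258 and 1009 units in Tcon. In each of them 1 Treg and 1 Tcon array, of different genotypes, were above background.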
